A study of Sus scrofa with 6 samples.

Results

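Chemokine receptors were examined in the PBMC transcriptomes of 6 Yorkshire pigs aged 6 months. Of 9 receptor symbols chosen (CCR1, CCR2, CCR4, CCR7, CCR9, CXCR3, CXCR4, CXCR5 and CX3CR1), 8 were found in the symbol column of the deposited table among its 11564 genes, and CCR4 was not analysed here. PBMCs are the mononuclear cells of blood, that is lymphocytes and monocytes. Of the 6 libraries, 3 were labelled wild type (WT) and 3 were labelled Leptin-overexpressing, called leptin transgenic here, each from a different animal of the same breed, age and cell type. The transgene held the pig leptin reading frame, placed by the study behind a leptin promoter, and the founder pigs were made by nuclear transfer from fetal fibroblasts that had been transfected and selected. The controls were nontransgenic pigs, and no treatment is given in the labels of either group. Whether the sequenced transgenic pigs came from 1 fibroblast clone or several is not given in the sources used here.

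Chemokine receptors are G protein-coupled receptors of the cell membrane that steer leukocytes along gradients of small secreted proteins, the chemokines. Ligand binding activates inhibitory G proteins of the Gi class, which sets off actin remodelling and integrin activation, and arrestins then silence and internalise the receptor. Each blood leukocyte carries its own set. CCR1, CCR2 and CX3CR1 serve mainly monocytes and other inflammatory cells, CCR7, CXCR5 and CXCR4 place lymphocytes within lymph nodes, B cell follicles and bone marrow, and CXCR3 and CCR9 guide effector lymphocytes to inflamed tissue and to the gut.

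The unit of measurement was FPKM, the number of sequenced fragments relative to the length of the transcript and the size of the library, so that levels of different genes can be set side by side. FPKM values hold no read counts, so the depth behind them is unknown. The values of a library summed to between 444888 and 503140. Differences between labels are given on the scale log2(FPKM + 1), as leptin transgenic minus wild type, which shrinks the change of a gene with low FPKM. LEP, the gene the transgene carries, was at 50.0 FPKM in wild type replicate 1, listed at 0 in wild type replicate 2 and at 0.118 in wild type replicate 3. Among the leptin transgenic libraries, replicates 2 and 3 had 18.3 and 39.3 FPKM of it, and replicate 1 was listed at 0. LEP therefore goes against the label in both libraries numbered 1, and the comparisons below follow the labels, with the receptors and each gene list also compared without these 2 libraries. The labelled cell type was checked against marker genes. All 16 T cell markers sought were present at 1 FPKM or more in every library, as were 8 of 12 B cell markers, and 12 of the 14 loci named for monocyte markers reached 1 FPKM in every library. The 8 neutrophil and granulocyte genes found summed to between 451.5 and 3625 FPKM, the highest in wild type replicate 1. Most of that sum came from S100A8, S100A9 and S100A12, which monocytes express too, and ELANE, a neutrophil granule protease, was at 0.275 to 1.05 FPKM. Of 78 cell type marker loci tested, 1 had an unadjusted p under 0.05 (limma; 3.18% of all genes did), CD244, a receptor of cytotoxic cells, which was at 16.02 to 23.8 FPKM in the wild type and 26.3 to 31.2 FPKM in the leptin transgenic libraries (adjusted p = 0.993). Without both libraries numbered 1, CD244 had an unadjusted p of 0.0775 (limma), and 6 other markers were under 0.05 (2.32% of all genes), among them the B cell gene EBF1 and the macrophage gene CD68, lower in the leptin transgenic libraries, and the monocyte gene LYZ and the granulocyte gene PADI4, higher in them. Sex is not given in the labels, and the study describes the fetus that gave the fibroblasts as male. The Y-linked gene DDX3Y was at 35.0 and 31.1 FPKM in wild type replicates 1 and 2 and at 20.4 FPKM in leptin transgenic replicate 1 and near 0 in the other 3 libraries, so that 2 of 3 wild type and 1 of 3 leptin transgenic libraries held it, and its part in the comparisons was not tested. In such mixed samples, fewer cells of a type and less RNA per cell cannot be told apart.

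The receptor genes lay on 5 chromosomes, with 4 of the 8 on chromosome 13. Coordinates are those of the deposited table, which names no genome build. CCR9 (ENSSSCG00000011316, chromosome 13 from 32129988 to 32147645), CCR1 (ENSSSCG00000011322, from 32323641 to 32330286) and CCR2 (ENSSSCG00000024311, from 32532564 to 32538394) belonged to a cluster of 438.5 kb that ran from CCR9 to CCRL2. XCR1, the receptor of cross-presenting dendritic cells, and 4 loci without a symbol lay in the same cluster. CX3CR1 (ENSSSCG00000024024, chromosome 13 from 26204855 to 26217959) lay 5.91 Mb from the CCR9 end of the cluster. The others were CCR7 (ENSSSCG00000017466, chromosome 12 from 22140213 to 22152154), CXCR4 (ENSSSCG00000015688, chromosome 15 from 18124940 to 18128996), CXCR5 (ENSSSCG00000015098, chromosome 9 from 51169146 to 51180308) and CXCR3 (ENSSSCG00000012402, chromosome X from 65033699 to 65037068). All 8 are annotated as protein-coding genes, and the KEGG chemokine signalling pathway is assigned in the table to 7 of them, the exception being CX3CR1.

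Neighbours in the cluster differed widely in level. CCR1 averaged 251.4 FPKM over the 6 libraries, and CCR9, at one end of the same cluster, averaged 4.29 FPKM. CCR2 has close paralogs with which fragments could be shared in the counting, and its values are uncertain to that extent. The name CCR2 is itself not settled for this identifier. The deposited table calls it CCR2, whereas the reference table of Ensembl identifiers pairs the same identifier with CCR3. RefSeq (Sscrofa11.1) gives CCR2 a gene length of 5830 bp, against 5831 bp for the locus in the deposited table, and lists CCR3 between CCR1 and CCR2. The name in the deposited table is kept here. The reference gave the same symbol as the table for 6 of the 7 receptor identifiers it holds.

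**Figure D1:**
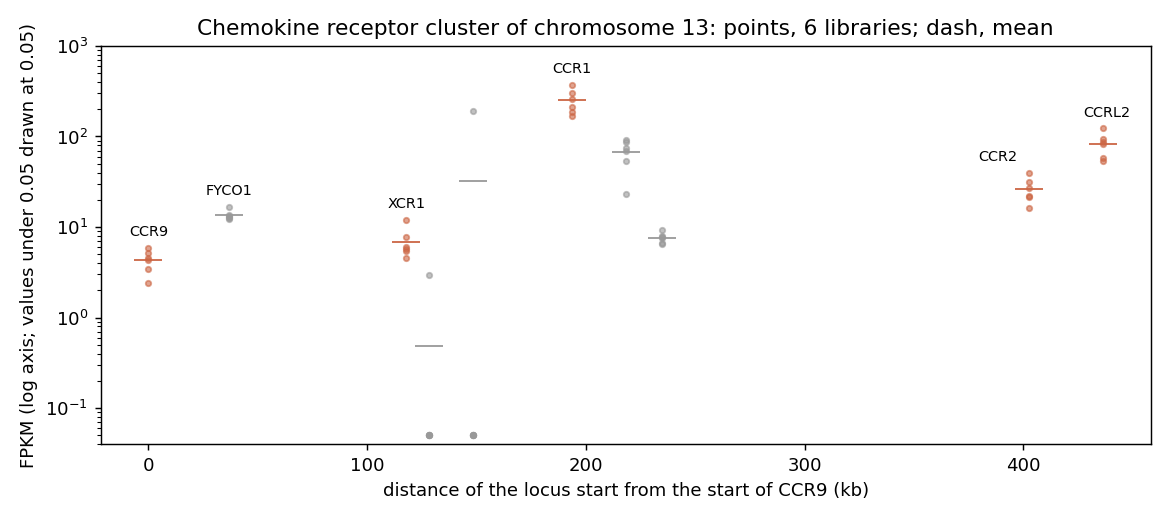
FPKM (log axis) of loci of the chromosome 13 cluster against the distance of each start from the start of CCR9 in kb, with 1 point per library, a dash for the mean of 6 libraries, values under 0.05 drawn at 0.05, receptor genes in orange and other loci in grey. CCR1 stands highest, with all 6 points between 169.8 and 374.4 FPKM, and CCR9 lowest among the named receptors.

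The order of levels was much the same in every library. CCR1 ranked first and CXCR4 second of the 8 receptors in all 6 libraries, CCR9 ranked seventh and CXCR5 last in all 6. CCR1 alone made up between 49.5% and 69.0% of the summed FPKM of the receptors. CXCR4 followed with 53.1 to 104.4 FPKM, below the lowest CCR1 value and above the highest CCR2 value. CCR2 (16.1 to 39.4 FPKM), CCR7 (16.5 to 35.4 FPKM) and CX3CR1 (18.1 to 32.6 FPKM) had overlapping ranges and changed places from library to library, so these neighbours did not differ beyond their spread. CX3CR1 was above CXCR3 within each of the 6 libraries, although the range of CXCR3 (6.59 to 18.5 FPKM) reached that of CX3CR1. The ranges of CXCR3 and CCR9 (2.40 to 5.89 FPKM) did not meet. CXCR5 had the lowest level, from 1.24 to 4.28 FPKM, and lay under CCR9 in each library.

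**Figure D2:**
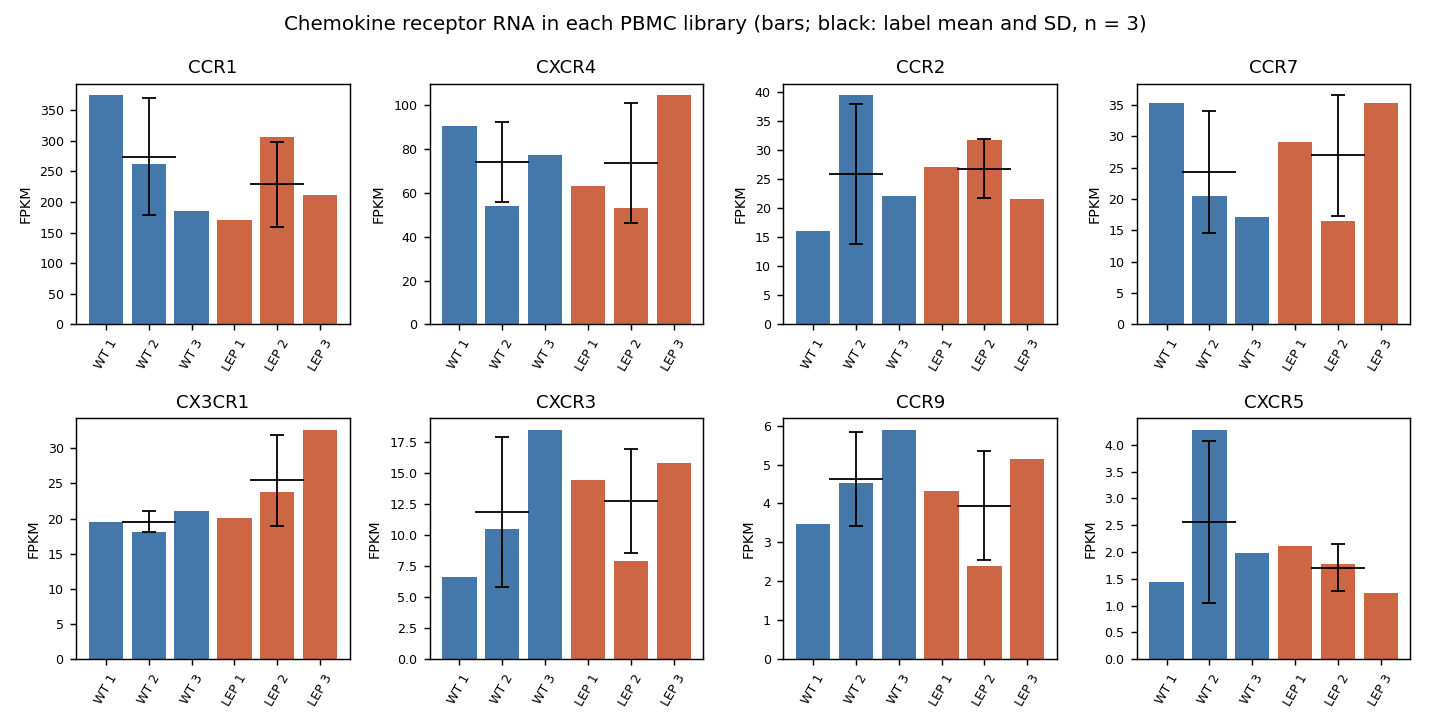
FPKM of each receptor in each library, in order of mean level, with bars in blue for libraries labelled wild type (WT) and in orange for those labelled leptin transgenic (LEP), and black marks for the mean and SD of each label (n = 3). For all 8 receptors the bars of one label overlap those of the other.

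None of the 8 chemokine receptors passed the test between labels. With an adjusted p under 0.05 in limma, 0 of the 8 receptors were called, against 0.00932% of all 10735 genes tested. With an unadjusted p under 0.05 the count was also 0, against 3.18% of all genes. The receptors whose 3 libraries of one label all lay above or below the other 3 numbered 0, against 7.63% of all genes. Of the 8 differences, 4 were above and 4 below 0, where 63.1% of all genes were above 0. The receptors had a median difference of 0.044 on the log2 scale, beside 0.059 over all genes tested. The adjusted p was 0.993 for 7 receptors and 0.997 for CXCR4 (limma), and the two-sided exact permutation p ran from 0.2 to 1, where 3 against 3 libraries allow no p under 0.1. All 8 of the 95% intervals held 0, and the bounds farthest from 0 were -0.99 (CXCR5) and 0.99 (CXCR3). Changes of up to about 2-fold in FPKM + 1 in either direction thus lay within them. In FPKM itself the change at such a bound is larger, above all for CXCR5, the receptor with the lowest level. The mean FPKM of one label was between 0.667 and 1.30 times that of the other, whereas the highest library exceeded the lowest by 1.80 to 3.46 times.

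The spread between pigs of one label was wide for these genes. The SD within labels had a median of 0.455 over the receptors on the log2 scale, beside 0.219 over all genes tested, and 7 of the 8 lay above the 85th percentile of all genes. Without both libraries numbered 1, the adjusted and unadjusted counts stayed at 0 (2.32% of all genes passed the unadjusted p), and 2 receptors, CX3CR1 and CXCR5, no longer overlapped between 2 and 2 libraries, as did 25.9% of all genes. The sign of the difference turned for 4 receptors (CCR1, CCR2, CXCR3 and CXCR4) in that fit, and it also turned for these 4 when wild type replicate 1 alone was left out, to 0.011, -0.15, -0.18 and 0.12 in that order. Without both, the differences of the other 4 were 0.35 for CCR7, 0.49 for CX3CR1, -0.44 for CCR9 and -0.67 for CXCR5, of which the smallest unadjusted p was 0.0753, for CX3CR1 (limma).

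**Figure D3:**
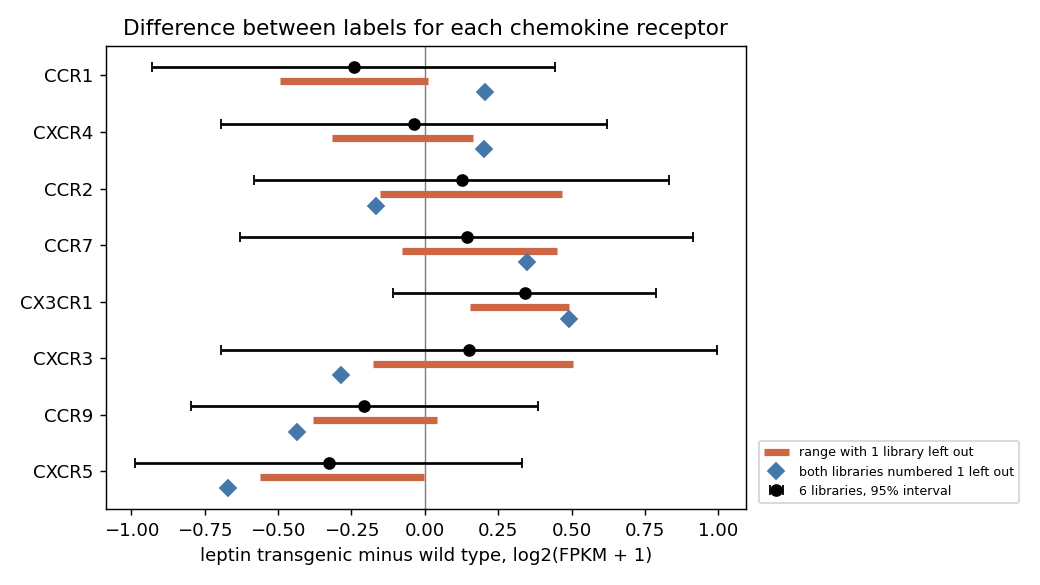
Difference between labels for each receptor on the log2(FPKM + 1) scale, leptin transgenic minus wild type, with black points and bars for the estimate and 95% interval from 6 libraries, orange bars for the range when 1 library is left out, and blue diamonds for the value without both libraries numbered 1. Every black interval crosses 0, and the orange bars of 6 receptors do too, those of CX3CR1 and CXCR5 being the exceptions.

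Among the inflammatory receptors, CCR1 binds CCL3, CCL5 and CCL23 and is carried by monocytes and, in several species, neutrophils. It was at 374.4, 261.7 and 185.8 FPKM in wild type replicates 1, 2 and 3 and at 169.8, 305.5 and 211.5 FPKM in leptin transgenic replicates 1, 2 and 3. The lowest library and the second highest both carried the leptin transgenic label and the highest was wild type, so the groups overlapped in part. The label means were 274.0 ± 94.9 and 228.9 ± 69.5 FPKM (SD, n = 3), a difference of -0.24 on the log2 scale (standard error 0.30, 95% interval -0.93 to 0.44). CCR1 was high in the libraries in which neutrophil and granulocyte genes were high. The 8 genes of that list summed to 3625, 728.4 and 452.7 FPKM in the wild type libraries and to 451.5, 1348 and 688.7 FPKM in the leptin transgenic ones, with S100A8, S100A9 and S100A12 making up most of the sum, MMP8 at 9.74 FPKM or less and ELANE at 1.05 or less. The part of these cells in the CCR1 values was not tested.

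CCR2, the receptor for CCL2 and CCL8 that releases monocytes from bone marrow, was less abundant. It was at 16.1, 39.4 and 22.0 FPKM in the wild type libraries and at 27.1, 31.7 and 21.6 FPKM in the leptin transgenic libraries. Both the lowest and the highest value came from libraries labelled wild type, and the other 4 lay between them. The means were 25.9 ± 12.1 and 26.8 ± 5.10 FPKM (SD, n = 3), with a difference of 0.13 (standard error 0.31, 95% interval -0.58 to 0.83). In wild type replicate 1, where CCR1 was highest, CCR2 was lowest. The ratio of CCR1 to CCR2 was 23.2 in that library and between 6.27 and 9.81 in the other 5.

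CX3CR1 is the receptor for fractalkine (CX3CL1) and marks patrolling monocytes and cytotoxic lymphocytes. Its values were 19.5, 18.1 and 21.1 FPKM in the wild type libraries and 20.0, 23.8 and 32.6 FPKM in the leptin transgenic libraries. The wild type libraries lay close together, and only leptin transgenic replicate 1 fell among them. With means of 19.6 ± 1.53 and 25.5 ± 6.46 FPKM (SD, n = 3), CX3CR1 had the largest positive difference of the 8, at 0.34 (standard error 0.20, 95% interval -0.11 to 0.79, unadjusted p = 0.120, adjusted p = 0.993, limma; exact permutation p = 0.2). The difference was positive in all 13 alternative fits, from 0.15 to 0.49. Without leptin transgenic replicate 1 it was 0.49, with an unadjusted p of 0.0454 in limma, and without leptin transgenic replicate 3 it was 0.15. CX3CR1 was also the receptor with the least spread within labels, at percentile 62.0 of all genes.

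Of the receptors that place lymphocytes, CCR7 binds CCL19 and CCL21 and brings naive T cells and dendritic cells into lymph nodes. It was at 35.4, 20.4 and 17.2 FPKM in the wild type libraries and at 29.1, 16.5 and 35.3 FPKM in the leptin transgenic libraries. Wild type replicate 1 and leptin transgenic replicates 1 and 3 were high and the other 3 libraries low, with no value between 20.4 and 29.1 FPKM, so that high and low values occurred under both labels. The means were 24.3 ± 9.69 and 26.9 ± 9.59 FPKM (SD, n = 3), and the difference was 0.14 (standard error 0.33, 95% interval -0.63 to 0.91). The 16 T cell markers summed to 1578, 1232 and 1610 FPKM in the wild type libraries and to 1813, 1100 and 1859 FPKM in the leptin transgenic ones, lowest where CCR7 was lowest (leptin transgenic replicate 2), but wild type replicate 3 was low in CCR7 and not in these markers. Their part in the CCR7 values was not tested.

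CXCR4, the receptor for CXCL12 that retains leukocytes in bone marrow, is found on nearly all of them. Its values were 90.4, 54.1 and 77.3 FPKM in the wild type libraries and 63.1, 53.1 and 104.4 FPKM in the leptin transgenic libraries. The highest and the lowest library both carried the leptin transgenic label. Its means were nearly equal, 73.9 ± 18.4 and 73.5 ± 27.2 FPKM (SD, n = 3), and the difference of -0.036 (standard error 0.29, 95% interval -0.69 to 0.62) was the smallest in size of the 8.

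CXCR5 binds CXCL13 and draws B cells and follicular helper T cells into follicles. It was at 1.43, 4.28 and 1.98 FPKM in the wild type libraries and at 2.12, 1.77 and 1.24 FPKM in the leptin transgenic libraries. Wild type replicate 2 stood apart at 4.28 FPKM, and the other 5 libraries lay between 1.24 and 2.12. The means were 2.56 ± 1.51 and 1.71 ± 0.445 FPKM (SD, n = 3), with the most negative difference of the 8, -0.33 (standard error 0.29, 95% interval -0.99 to 0.33). Without wild type replicate 2 the difference was -0.0043, so its size rests on that library. The 8 B cell markers found summed to 354.6, 694.0 and 693.1 FPKM in the wild type libraries and to 657.5, 547.3 and 575.9 FPKM in the leptin transgenic ones, so that wild type replicate 3, with 1.98 FPKM of CXCR5, had nearly the same sum as wild type replicate 2. In the fit that leaves out both libraries numbered 1, where CXCR5 differed by -0.67, the B cell factor EBF1 differed by -0.52. The median of the 8 B cell markers in that fit was -0.33, with 7 below 0 and 1 above. Among them CD79B, CR2 and BLNK differed by -0.098, -0.063 and 0.0094. With all 6 libraries, 5 of the 8 markers were above 0 and 3 below, where 63.1% of all genes were above 0. The part of B cells in the CXCR5 values was not tested. The CXCR5 locus shares 1530 bp with a locus that the reference table names BCL9L, which was at 20.8 to 33.0 FPKM. The libraries were made with a strand-specific kit per the labels, but whether strand was used in the counting is not given in the sources used here, so the low CXCR5 values are uncertain.

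Among the receptors of effector lymphocytes, CXCR3 binds the interferon-induced ligands CXCL9, CXCL10 and CXCL11 and marks T helper 1 cells, cytotoxic T cells and NK cells. It was at 6.59, 10.5 and 18.5 FPKM in the wild type libraries and at 14.4, 7.93 and 15.8 FPKM in the leptin transgenic libraries. Wild type libraries held both ends of this range, with means of 11.8 ± 6.05 and 12.7 ± 4.20 FPKM (SD, n = 3) and a difference of 0.15 (standard error 0.37, 95% interval -0.69 to 0.99). The spread of CXCR3 within labels was the widest of the 8, at the 95.5th percentile of all genes. CXCR3 is on chromosome X. In the 3 libraries with DDX3Y near 0 it was both low (7.93) and high (15.8 and 18.5).

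CCR9, the receptor for CCL25 that directs lymphocytes to the small intestine, was at 3.46, 4.53 and 5.89 FPKM in the wild type libraries and at 4.31, 2.40 and 5.13 FPKM in the leptin transgenic libraries. The groups overlapped, and leptin transgenic replicate 2 was the lowest. The means were 4.63 ± 1.217 and 3.95 ± 1.40 FPKM (SD, n = 3), a difference of -0.21 (standard error 0.26, 95% interval -0.80 to 0.38) that came to 0.043 without leptin transgenic replicate 2. CXCR3 and CCR9 were both highest in wild type replicate 3, next in leptin transgenic replicate 3, and lowest in wild type replicate 1 and leptin transgenic replicate 2, the 2 libraries with the most CCR1. The ratio of CCR1 to CXCR3 was 56.8 and 38.5 in those 2 libraries and from 10.1 to 25.0 in the other 4. The 14 monocyte loci summed to 1379, 967.5 and 1000.5 FPKM in the wild type libraries and to 1210, 1590 and 1180 FPKM in the leptin transgenic ones, highest in the same 2 libraries, and the 15 cytotoxic and NK cell loci to 761.4, 386.6 and 847.8 and to 620.1, 516.1 and 805.8 FPKM. Of these loci only KLRD1, an NK cell receptor chain, was listed at 0 anywhere, in 4 libraries. The part of cell composition in the receptor values was not tested.

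**Figure D4:**
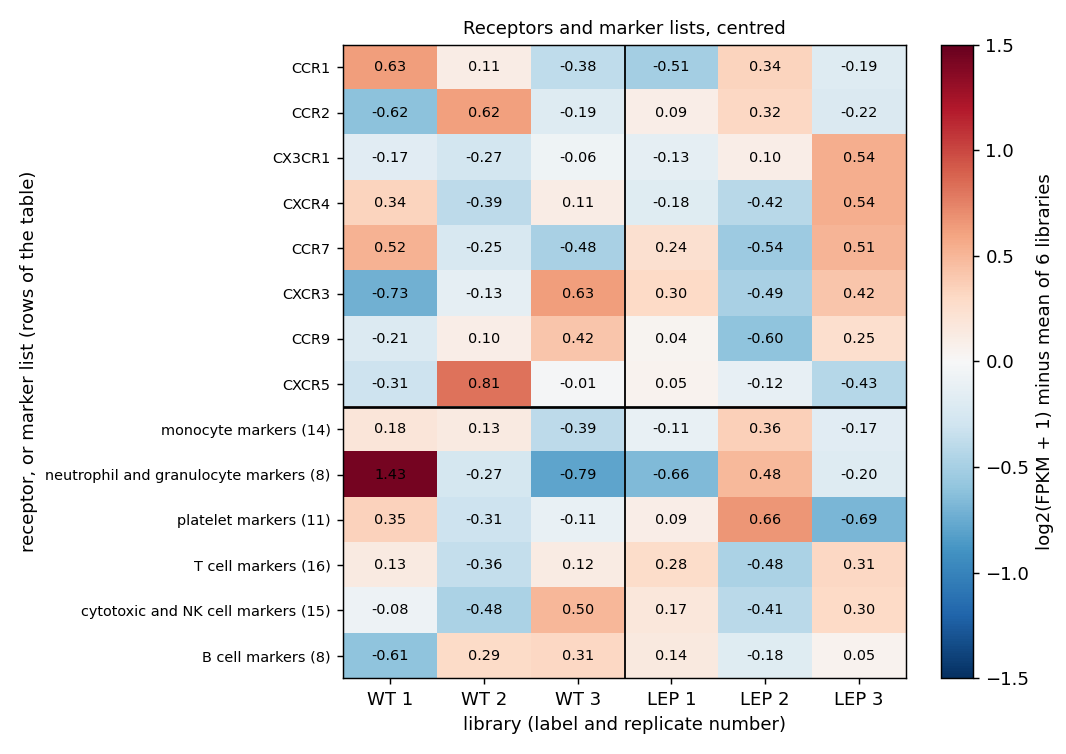
Each receptor, and below the line the mean of each marker list with its number of loci in brackets, as log2(FPKM + 1) minus its own mean over the 6 libraries, for libraries labelled wild type (WT, left) and leptin transgenic (LEP, right). In WT 1 and LEP 2, CCR1 is red (0.63 and 0.34) where CXCR3 and CCR9 are blue, and the neutrophil list is reddest in WT 1 (1.43).

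The receptors were also set against each other. Likeness was measured as the root mean square difference of centred log2(FPKM + 1) values over the 6 libraries, where 0 means identical patterns, and it is given as a description over libraries that all share their other genes. Of the 28 pairs, the closest were CCR2 with CXCR5 (0.26), both highest in wild type replicate 2, then CCR9 with CXCR3 (0.28), CXCR4 with CX3CR1 (0.31) and CXCR4 with CCR7 (0.32). The most unlike pair was CCR1 with CXCR3 (0.88). Although they share a cluster, CCR1 and CCR2 differed by 0.61 and CCR1 and CCR9 by 0.67.

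By the same measure, each of the 6 receptors with a range of at least 1 on the log2 scale was compared with 1039 other named genes of such a range. CCR1 was most like ACSL6 (0.092), an acyl-CoA synthetase, C5AR1 (0.12), the receptor for the complement fragment C5a, and GPAT3 (0.12), an enzyme of triglyceride synthesis. C5AR1 was itself abundant, from 129.1 to 284.0 FPKM. CCR2 was most like PTPRO (0.11), a receptor tyrosine phosphatase, GALM (0.13), an enzyme of galactose metabolism, and ARID5A (0.13), an RNA-binding protein. CCR9 was most like ZBTB38 (0.047), JCHAIN (0.097), which joins polymeric IgA and IgM, and ATXN7L1 (0.11). CXCR3 was most like APOBEC3H (0.099), a cytidine deaminase, DHODH (0.10), an enzyme of pyrimidine synthesis, and NUP35 (0.12), a nuclear pore protein. Matches to CCR7 and CXCR5 were less close. The nearest to CCR7 was IL7R (0.20), the interleukin 7 receptor of naive and memory T cells, at 50.3, 28.7 and 28.0 FPKM in the wild type libraries and 34.0, 20.8 and 36.7 FPKM in the leptin transgenic ones, followed by LIX1 (0.22) and EGR2 (0.22). The nearest to CXCR5 were ARID5A (0.18), TRIM6 (0.21) and ABCG2 (0.21), which like CXCR5 were highest in wild type replicate 2. These genes are the closest of many candidates over 6 libraries, and no test was made of them.

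The rest of the receptor family was read in the same way. Of 20 further symbols sought, 8 were found and 7 passed the filter on low values, ACKR1 being the one that did not. The unadjusted p was under 0.05 for 1 of the 7, lower in the libraries labelled leptin transgenic, where 1.19% of all genes were, and the adjusted p for 0. The gene was CMKLR1, a receptor for chemerin, at 5.26, 6.50 and 2.72 FPKM in the wild type libraries and 1.90, 3.09 and 2.32 FPKM in the leptin transgenic ones. The labels still overlapped, since leptin transgenic replicate 2 lay above wild type replicate 3. Its difference was -0.72 (standard error 0.27, adjusted p = 0.993, limma; exact permutation p = 0.2). Without both libraries numbered 1, no gene of this list (0 of 7) had an unadjusted p under 0.05 (limma), against 2.32% of all genes. The most abundant of this list was CCRL2, a receptor that presents chemerin without signalling, at 53.2 to 123.1 FPKM.

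The ligands of these receptors were compared next. Of 24 ligand symbols, 8 were found and tested. Their differences were above 0 for 6 and below for 2, where 63.1% of all genes were above 0. The ligands had a median difference of 0.48 on the log2 scale, beside 0.059 over all genes tested. An unadjusted p under 0.05 was reached by 2, both higher (1.98% of all genes), and an adjusted p under 0.05 by 0. These were CCL4 and CCL8, and both did not overlap between the labels and were higher in leptin transgenic libraries, as 5.0% of all genes were. CCL4, an attractant of monocytes and T cells, was at 9.34 to 18.1 FPKM in the wild type libraries and at 53.7 to 132.6 FPKM in the leptin transgenic ones, and its difference was 2.38 (standard error 0.36, unadjusted p = 1.69e-04, adjusted p = 0.897, limma). CCL8, a ligand of CCR2, was at 7.44, 9.85 and 2.85 FPKM in the wild type libraries and at 15.3, 17.1 and 12.5 FPKM in the leptin transgenic libraries. The difference of CCL8 was 1.16 (standard error 0.35, unadjusted p = 0.0110, adjusted p = 0.993, limma; exact permutation p = 0.1, the smallest that 3 against 3 can give). Without both libraries numbered 1, CCL4 differed by 2.75 (unadjusted p = 9.13e-04, limma) and CCL8 by 1.27 (unadjusted p = 0.0442, limma), each with an adjusted p of 0.999. These stayed the 2 ligands under an unadjusted p of 0.05, where 2.32% of all genes were. CCR2 itself differed by 0.13, as given above. CCL21, a CCR7 ligand, was at 3.07, 4.70 and 9.79 FPKM and at 11.9, 9.74 and 8.01 FPKM, overlapping, with a difference of 0.77 (unadjusted p = 0.0502, adjusted p = 0.993, limma).

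With all 6 libraries, CCL23, CCL5, CXCL10 and CCL3L1 overlapped between the labels. CCL23, which acts through CCR1, was the most abundant ligand, at 1010 to 1272 FPKM in all 6 libraries, and CCL5 followed at 330.5 to 868.9 FPKM. CCL5 was highest in wild type replicate 3 and lowest in leptin transgenic replicate 2, as was CCR9. The CXCR3 ligand CXCL10 was at 42.3 FPKM in wild type replicate 2 and between 9.65 and 15.9 FPKM in the other 5 libraries, and the library with the most CXCL10 held 10.5 FPKM of CXCR3, within the range of the rest. CCL3L1, at 3.70 to 19.5 FPKM, was highest in leptin transgenic replicate 2. Without both libraries numbered 1, CCL3L1 no longer overlapped between the labels, as 25.9% of all genes did not. It was then higher in the leptin transgenic libraries by 1.25 (unadjusted p = 0.0594, adjusted p = 0.999, limma).

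**Figure D5:**
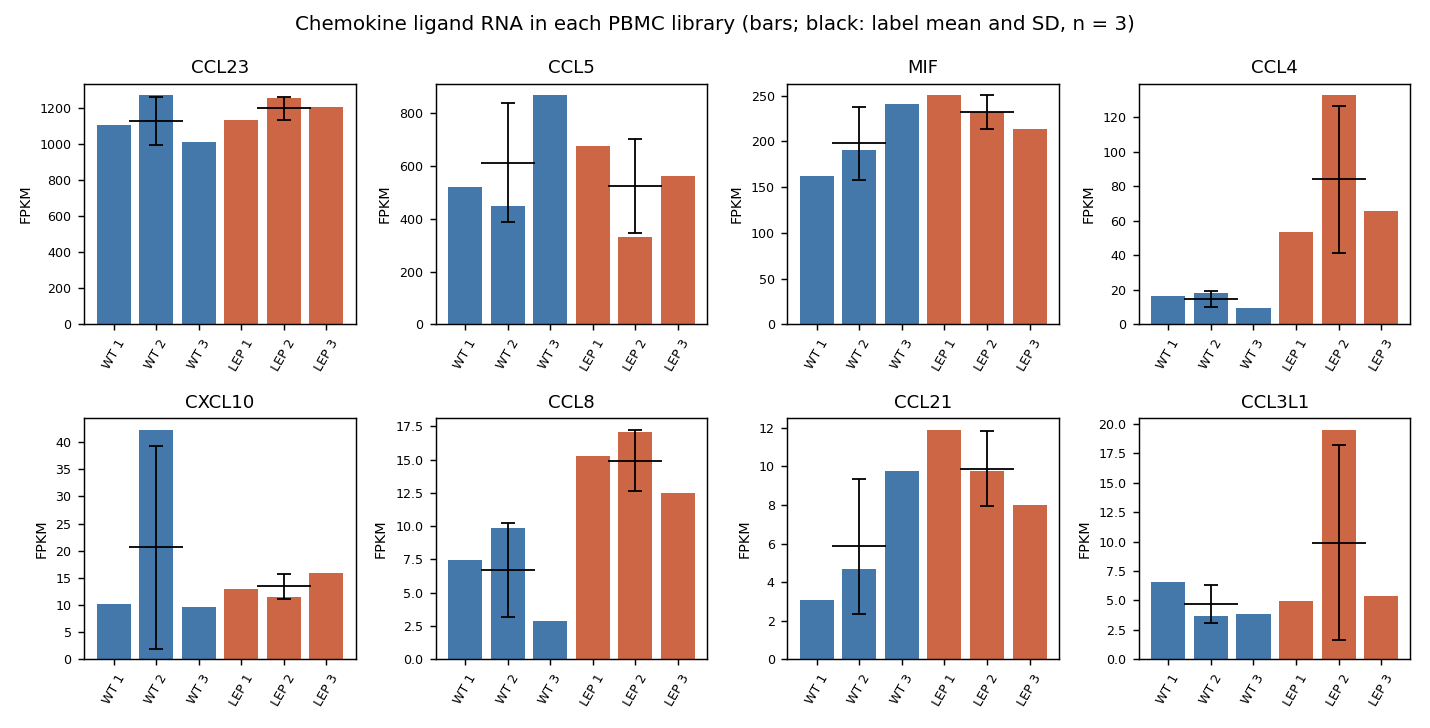
FPKM of the 8 ligands found, in order of mean level, in each library, with bars in blue for wild type (WT) and orange for leptin transgenic (LEP) labels, and black marks for the mean and SD of each label (n = 3). CCL4 and CCL8 are the 2 ligands whose orange bars all stand above the blue ones, and CXCL10 has 1 high bar, in WT 2.

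Downstream of the receptors, genes of signalling and desensitisation were compared. Of 43 symbols, 31 were found at 32 loci, all tested. Of these loci, 18 had a difference above 0 and 14 below, where 63.1% of all genes were above 0. An adjusted p under 0.05 was reached by 0 of the 32 (limma; 0.00932% of all genes). The unadjusted p was under 0.05 for 0 as well (3.18% of all genes). The median difference of the 32 loci was 0.016. GNAI2, the Gi alpha subunit that couples most leukocyte chemokine receptors, was at 706.8 to 967.2 FPKM, and the arrestin ARRB2 at 346.7 to 475.7 FPKM. The largest differences in size were those of RGS1, a brake on Gi signalling in lymphocytes, at -0.42 (95% interval -1.23 to 0.40), and of GNA13, a G protein alpha subunit of the G12/13 class, at -0.38 (95% interval -0.82 to 0.052). GNA13 did not overlap between the labels, at 23.8, 25.3 and 22.3 FPKM in the wild type libraries and 19.9, 13.6 and 21.4 FPKM in the leptin transgenic ones (lower in 2.63% of all genes), with an unadjusted p of 0.0769 in limma. In all, 3 of the 32 loci did not overlap, beside 7.63% of all genes. The others were ARRB1, an arrestin, at 22.6 to 24.8 FPKM in the wild type and 27.7 to 28.8 FPKM in the leptin transgenic libraries, and RHOA, a GTPase of the actin skeleton, at 275.8 to 294.1 and 295.2 to 340.5 FPKM, both higher as in 5.0% of all genes. Without both libraries numbered 1, 0 of the 32 had an unadjusted p under 0.05 (limma), against 2.32% of all genes. The differences were then -0.45 for GNA13, 0.19 for ARRB1 and 0.13 for RHOA.

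Genes that work beside the receptors in lymphocyte homing were the last list. Of 16 symbols, 14 were found and tested, among them CCR7, CCR9 and CXCR5. Of the 14 differences, 7 were above 0 and 7 below, where 63.1% of all genes were above 0. An adjusted p under 0.05 was reached by 0 of the 14 (limma; 0.00932% of all genes). The unadjusted p was under 0.05 for 0 as well (3.18% of all genes). The largest difference in size was that of ITGA4, the alpha 4 integrin chain that pairs with beta 7 for homing to the gut, at 65.2, 61.1 and 83.1 FPKM in the wild type libraries and 82.3, 85.7 and 105.5 FPKM in the leptin transgenic ones. The difference of ITGA4 was 0.38 (95% interval -0.024 to 0.79, unadjusted p = 0.0617, adjusted p = 0.993, limma), and the labels overlapped at wild type replicate 3. The next was that of CXCR5, given above. When both libraries numbered 1 were left out, ITGA4 differed by 0.41, and the median of the list went from 0.0051 to 0.19. In that fit 0 of the 14 genes had an unadjusted p under 0.05 (limma), against 2.32% of all genes.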

How the data were processed

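PBMC RNA of 6 pigs had been sequenced as paired-end reads of 101 bp, and the authors deposited 1 FPKM value per gene and library. The paper names Bowtie, the Ensembl version 75 transcriptome, RSEM and maSigPro, whereas the submitters' processing notes name FastQC, STAR 2.5, Cuffnorm and DESeq 1.22.1. Which of these made the FPKM values is not settled, and this bears on how fragments shared by similar receptors were assigned. The authors' fold changes, p-values and marks for the same table were not used. Groups came from the sample titles and columns were matched by animal code, with 0 columns left over. No pair of libraries was identical.

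Labels were compared with limma 3.58.1 (lmFit, eBayes) in R 4.3.3 on log2(FPKM + 1), with genotype as the only term. Genes entered where 3 or more libraries reached 1 FPKM, which left 10735, and two-sided p-values were adjusted over all of these by the Benjamini-Hochberg method. The fit was tested on simulated data. Exact permutation tests and likeness were computed in Python 3.11.15. Genes without a symbol took one from the reference table of Ensembl identifiers where it held theirs (1504 of 4000 genes, 12 in the lists used). Named were all receptors found, genes of the other lists with an unadjusted p under 0.05 or otherwise those with the largest differences, the 3 genes most like each variable receptor, and further genes for their levels, chosen after their values were seen. The receptors and lists were chosen with earlier results of these data known. No interval for counting error is given, since FPKM hold no counts. The limma p-values and intervals rest on the spread between 3 pigs per label, drawn by eBayes toward the spread of all genes. For each receptor, an unmoderated t-test on its own spread gave a larger p. For CCR1 it was 0.559, against 0.439 in limma. Alternatives were the pseudocount, the filter, median-of-ratios scaling, unmoderated variance, a replicate block and left-out libraries. Some genes of the lists are not reported here.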

Additional observations from a re-analysis of the deposited data

How the results depend on the processing

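The count of receptors with an adjusted p under 0.05 was 0 in all 13 alternatives, and the smallest adjusted p of any receptor in them was 0.640 (limma). The count with an unadjusted p under 0.05 ranged from 0 to 1 with one replicate left out, the 1 being CX3CR1 without leptin transgenic replicate 1, and was 0 in the other alternatives. Receptors without overlap between the labels ranged from 0 to 1 with one replicate left out and numbered 2 without both libraries numbered 1, where fewer libraries make such gaps more common. The median difference of 0.044 moved by less than the spread between libraries in every alternative. It was -0.020 with median-of-ratios scaling, which takes the median of all genes from 0.059 to 0.0020, and ranged between -0.14 and 0.10 when single replicates were dropped.

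Of 104 values for single receptors under alternatives, 16 changed sign, none of them past the unadjusted threshold. Without both libraries numbered 1, CCR1 was at 0.20, CCR2 at -0.17, CXCR3 at -0.29 and CXCR4 at 0.20. With one replicate left out, CCR1 ranged from -0.49 to 0.011, CCR2 from -0.15 to 0.47, CCR7 from -0.078 to 0.45, CCR9 from -0.38 to 0.043, CXCR3 from -0.18 to 0.50 and CXCR4 from -0.32 to 0.16. CX3CR1 and CXCR5 kept their sign in all 13. With the replicate number as a block, the median was 0.044 and both counts were 0. Same-numbered libraries came from different animals, the correlation of their deviations from the label means ran from -0.28 to 0.13, and 1 of 6 libraries was closest to its own number, so the numbers do not pair the samples. The depth of the libraries is unknown, which limits what can be said of the receptor with the lowest level, CXCR5.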

Other observations

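Between CCR1 and CCR2 in the chromosome 13 cluster lies a locus without a symbol, ENSSSCG00000024408 (chromosome 13, start 32348401, end 32450254, as the table gives them), singled out after its values were seen. Within its coordinates lies a further locus without a symbol, ENSSSCG00000024270 (start 32364950, end 32370779), at 6.52 to 9.31 FPKM. How fragments of the overlap were assigned is not given in the sources used here, so the values of both loci are uncertain. ENSSSCG00000024408 was at 22.9, 69.4 and 91.2 FPKM in the wild type libraries and at 87.1, 54.3 and 75.5 FPKM in the leptin transgenic ones. It was lowest in wild type replicate 1 and next lowest in leptin transgenic replicate 2, the 2 libraries with the most CCR1. Its identity was not settled here, and no test was made of it. A shorter locus of the cluster without a symbol, ENSSSCG00000011321 (start 32278467, end 32278584), had 192.3 FPKM in 1 library, leptin transgenic replicate 1, the other 5 being listed at 0.

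CCR8, a receptor of skin-homing and regulatory T cells, was at 0.588, 2.32 and 2.24 FPKM in the wild type libraries and at 2.24, 0.700 and 1.91 FPKM in the leptin transgenic ones, low in the same 2 libraries. XCR1, which marks cross-presenting dendritic cells, was at 4.60 to 7.74 FPKM in 5 libraries and at 12.04 FPKM in leptin transgenic replicate 2. CCR10, a receptor of skin-homing T cells and IgA plasma cells, was at 0.899 to 2.46 FPKM, highest in leptin transgenic replicate 3. All 3 overlapped between the labels.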
